A study of Mus musculus with 12 samples.

Results

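The cytochrome P450 genes described here are those outside the subfamilies best known for induction by drugs and for bile acid synthesis. They were chosen by symbol alone: every probe set with a single annotated symbol beginning with Cyp and a digit was taken, leaving out the Cyp1a, Cyp1b, Cyp2b, Cyp2c, Cyp3a and Cyp4a subfamilies and Cyp7a1, Cyp7b1, Cyp8b1, Cyp27a1, Cyp26a1 and Cyp51. This gave 31 genes of the 12393 genes measured, and the rule left out 32 other P450 genes. Cyp2d gave 7 members (Cyp2d9, Cyp2d10, Cyp2d12, Cyp2d13, Cyp2d22, Cyp2d26 and Cyp2d34), Cyp4f gave 5 (Cyp4f13, Cyp4f14, Cyp4f15, Cyp4f16 and Cyp4f18) and Cyp2j gave 4 (Cyp2j5, Cyp2j6, Cyp2j9 and Cyp2j13). The other subfamilies gave 1 each, namely Cyp2a12, Cyp2e1, Cyp2f2, Cyp2g1, Cyp2s1, Cyp4b1, Cyp4v3, Cyp11a1, Cyp11b2, Cyp17a1, Cyp21a1, Cyp24a1, Cyp27b1, Cyp39a1 and Cyp46a1. Where a gene had several probe sets, the one with the highest mean over all arrays stood for it, which concerned 7 members.

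The study hybridised total RNA of whole liver to 12 Affymetrix 430A arrays, each with the pooled RNA of 3 male mice, in 4 groups of 3 arrays. All mice were 6 to 8 weeks old, are labelled as strain C57BL/6, and were first kept for 14 days on a soya-free powdered diet. The groups were wild type on that diet, wild type given it with quercetin, POR-null on that diet, and POR-null given it with quercetin. Quercetin, a plant flavonol, was mixed in at 6.2 g per kg (7 mg per mouse in the labels), and the mice were killed 24 h later. POR-null mice lack cytochrome P450 reductase, and the labels do not say which promoter or cell type the disruption depends on. Because each array is a pool, the p-values below measure the spread between pools of mice and not between single animals.

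Cytochromes P450 are heme enzymes that insert oxygen into drugs, steroids, bile acids, vitamins and fatty acids, and the liver holds them in large amounts. Those of the endoplasmic reticulum receive their electrons from POR, with cytochrome b5 as an additional donor for some of them. Those of mitochondria (Cyp11a1, Cyp11b2, Cyp24a1 and Cyp27b1 among these genes) take them from ferredoxin and ferredoxin reductase and do not depend on POR.

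The hepatocyte markers fitted the label: all 10 measured had mean log2 signals from 10.88 to 13.70, above the median of all values (5.96), while 0 of 6 cholangiocyte markers lay above it. Other markers above it were 10 of 13 macrophage, 8 of 13 stellate, 6 of 11 endothelial and 10 of 12 exocrine pancreas markers. The mean over the pancreas markers was above it in every array (6.14 to 9.51). So were 3 of 7 steroidogenic, 1 of 5 intestinal and 3 of 8 kidney markers. Array medians ran from 5.93 to 5.99 and arrays of a group correlated at r = 0.988 to 0.993. On the first principal component (33.0% of the variance) POR-null control pool 3 scored 0.11, between wild type (-23.7 to -6.11) and the other POR-null arrays (7.88 to 23.0). On the second (12.4%), wild-type control pool 1 scored 12.1 against -17.7 and -16.2 for the other wild-type control pools. Results that turn on either array are given below with and without it. The log2 gap between 3′ and 5′ control probe sets, a sign of RNA integrity, overlapped between genotypes for all 4 controls over both diets. For the transferrin receptor it was 0.99 to 1.28 in wild-type arrays and 1.17 to 1.37 in POR-null arrays, for beta-actin 0.79 to 1.01 and 0.83 to 1.02, for Pcx 1.72 to 2.58 and 1.90 to 2.46, and for Gapdh -0.23 to -0.14 and -0.22 to -0.12. On the control diet alone the transferrin receptor and Gapdh gaps did not overlap between genotypes. The first was 0.99, 1.02 and 1.13 in wild type and 1.33, 1.17 and 1.34 in POR-null. The second was -0.213, -0.194 and -0.17 in wild type and -0.155, -0.141 and -0.147 in POR-null. Beta-actin and Pcx overlapped there. Averaged over diets, 7.58% of all probe sets passed between genotypes and 23.0% had an unadjusted p under 0.05. Of 13 macrophage markers measured, 4 (Cd5l, C1qa, Lyz2 and Mpeg1) were higher in POR-null in that average (30.8%). The log2 of the summed macrophage signal was 11.02 to 11.60 in wild type on control diet, 11.24 to 12.05 in wild type on quercetin, 11.64 to 12.02 in POR-null on control diet and 11.78 to 12.05 in POR-null on quercetin. Of 13 stellate and matrix markers 1 (Sparc) was higher, of 10 hepatocyte markers 1 (Hnf4a) was lower, and limma called 0 of 11 endothelial, 0 of 6 cholangiocyte, 0 of 12 exocrine pancreas, 0 of 5 intestinal and 0 of 8 kidney markers (1, 2, 0, 1 and 0 of them at an unadjusted p under 0.05). The log2 summed signal of the pancreas markers was 10.09 to 12.29 in all arrays but POR-null quercetin pool 3, where it was 13.40; with that pool left out Cyp2d26 and Cyp4v3, described below, still passed. The part of RNA integrity or of cell makeup in the genotype differences below was not tested, and in whole liver fewer cells of a type cannot be told apart from less RNA per cell.

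Between genotypes, 4 of the 31 genes changed when both diets were averaged: Cyp17a1 rose, and Cyp2d26, Cyp4v3 and Cyp2j9 fell. That is 12.9% of the members, against 7.58% of all probe sets tested (1 gene rose, against 4.88% of all probe sets, and 3 fell, against 2.70%). All probe sets include many weak ones, while 20 of the 31 members lay above the median signal. With the lowest 40% of probe sets left out, 4 of 22 members passed, against 12.9% of 13575 probe sets. On the quercetin diet alone Cyp2d26 and Cyp4v3 fell (6.45% of the members, against 2.33% of all probe sets and 0.579% that fell). On the control diet alone limma called 0 of 31, against 1.16% of all probe sets. That share was 0.155% without POR-null control pool 1, 2.68% without POR-null control pool 3 (3 members called) and 3.34% without wild-type control pool 1 (1 member called). At an unadjusted p under 0.05 it counted 7 there (3 higher and 4 lower, against 7.87% and 7.94% of all probe sets), which is 22.6% against 15.8%. With few members called, these shares rest on single genes.

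The typical genotype difference of a member was small, and its gap to that of all probe sets was not tested. The median SD within groups was 0.146 for members and 0.135 over all probe sets. Without regard to sign, the median log2 difference of the 31 genes was 0.12 on the control diet, 0.14 on the quercetin diet and 0.13 averaged. Over all probe sets it was 0.11, 0.11 and 0.09. With sign, POR-null minus wild type, the median was 0.08, -0.06 and -0.03, against -0.01, -0.02 and -0.02 over all probe sets. Members with a difference above 0 numbered 19 on the control diet (46.6% of all probe sets were above 0) and 10 on the quercetin diet (44.0%). Under quantile normalization the last count became 14. The 95% confidence interval lay wholly within ±0.5 log2 units for 23 members on the control diet and 18 on the quercetin diet, so for those genes a larger genotype difference lies outside the interval. On the quercetin diet the arrays of both genotypes did not overlap for 12 of 31 members (4 higher, 8 lower in POR-null), while 25.0% of all probe sets were separated in this way (11.9% higher and 13.0% lower). On the control diet this held for 3 members, against 17.3% of all probe sets.

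**Figure D1:**
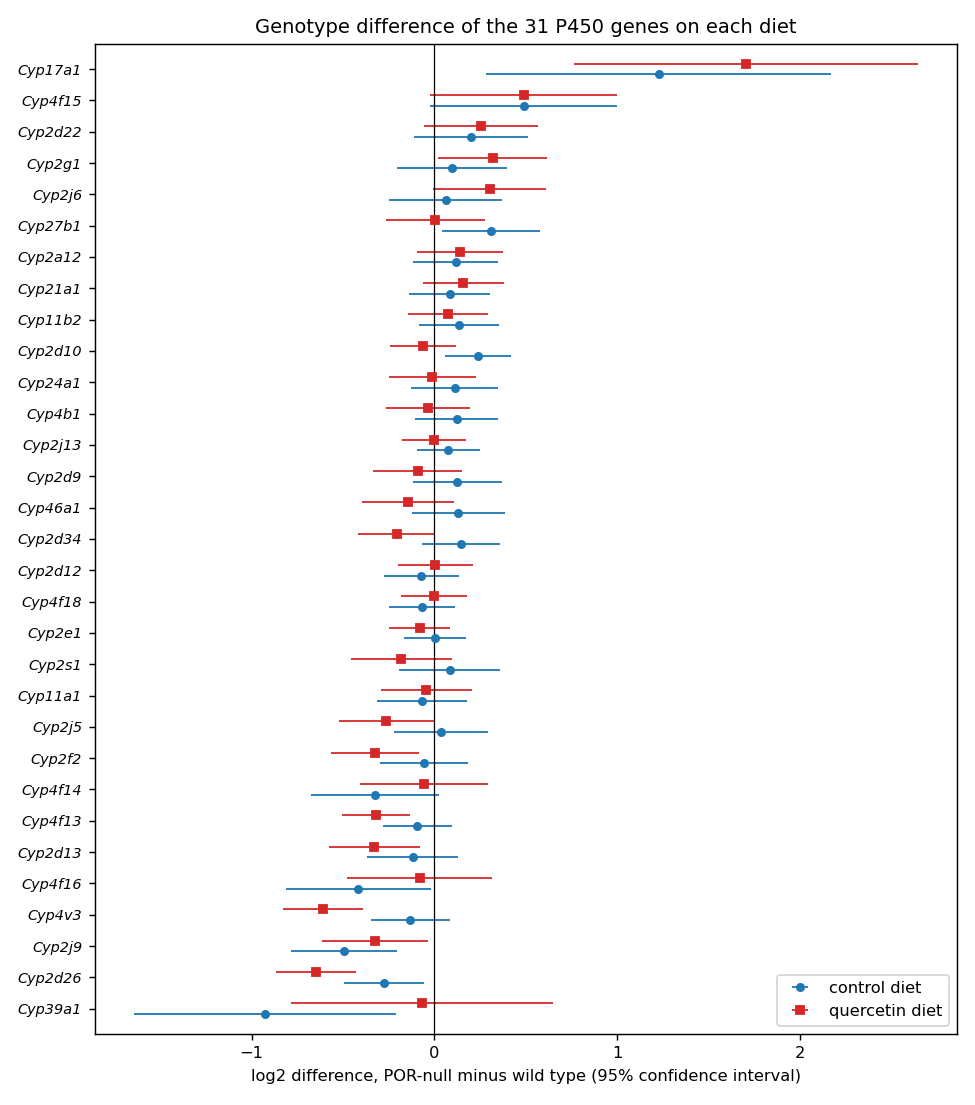
The log2 difference between POR-null and wild type is plotted for each of the 31 genes on the control diet (circles) and the quercetin diet (squares), with 95% confidence intervals from limma (3 arrays per group). Cyp17a1 is at 1.23 and 1.70, Cyp2d26 at -0.27 and -0.65 and Cyp39a1 at -0.93 and -0.07, while most other genes lie near 0.

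Cyp17a1, which hydroxylates and cleaves steroids on the way to androgens and cortisol-type hormones and is female-predominant in mouse liver, differed most. In wild type its log2 signal was 7.06, 7.58 and 7.84 on the control diet and 8.19, 7.12 and 7.79 on quercetin. In POR-null it was 8.90, 9.64 and 7.61 on the control diet and 10.04, 8.60 and 9.58 on quercetin. POR-null control pool 3 lay inside the wild-type range, while the other 5 POR-null pools lay above every wild-type pool. Averaged over diets it rose by 1.47 ± 0.31 log2 units (SE), 2.76-fold, with a 95% interval of 0.80 to 2.13 and a limma adjusted p of 0.0107. The difference was 1.23 ± 0.44 on the control diet (adjusted p = 0.19) and 1.70 ± 0.44 on quercetin (adjusted p = 0.0576), short of the threshold on each. The quercetin-diet difference passed in 5 of 20 alternative fits (limma adjusted p = 0.0148 to 0.234), among them the fit without POR-null control pool 3. Without POR-null control pool 3 the control-diet value was 1.78 and passed (adjusted p = 0.0267), and the average was 1.74. Without wild-type control pool 1 the average was 1.36 (adjusted p = 0.0217). With a robust variance prior the average no longer passed (adjusted p = 0.0685).

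**Figure D2:**
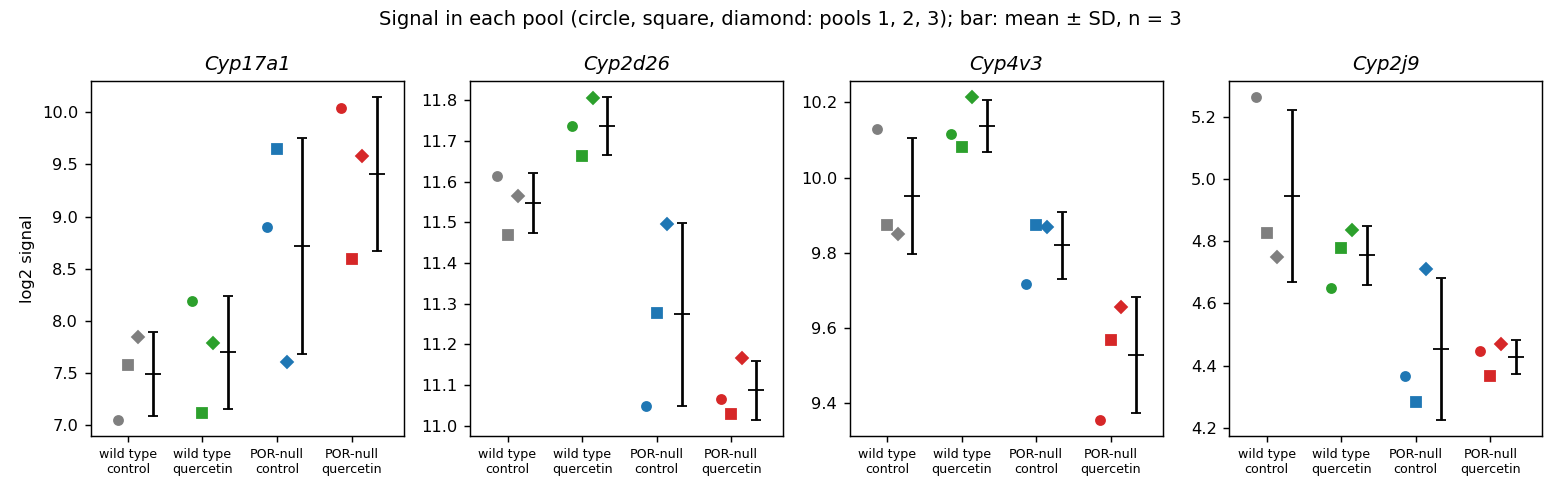
Log2 signal of the 4 genes that changed between genotypes is plotted for each pool (circle, square and diamond for pools 1, 2 and 3), with the group mean ± SD (n = 3); each panel has its own axis. Cyp17a1 is highest in POR-null quercetin pool 1 (10.04), and POR-null control pool 3 (7.61) sits among the wild-type pools.

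The Cyp2d genes are the mouse relatives of the human drug-metabolising gene CYP2D6 and lie together on chromosome 15 in the order Cyp2d22, Cyp2d10, Cyp2d9, Cyp2d12, Cyp2d34, Cyp2d13, Cyp2d26. Cyp2d13 is annotated as a transcribed pseudogene, and probes for such close copies may share signal, so single values within the cluster are uncertain. The 250 bases before the annotated start of the 3 genes that fell (Cyp2d26, Cyp4v3 and Cyp2j9) and of 2 cluster neighbours that did not pass (Cyp2d9 and Cyp2d10) are shown so that their start regions can be compared. They come from RefSeq, assembly GRCm38.p6, which listed a start for 21 of the 31 members, and each reads 5′ to 3′ toward the gene. Cyp2d26 is chr15:82794246-82794495, minus strand, Cyp2d9 is chr15:82452127-82452376, plus strand, Cyp2d10 is chr15:82407195-82407444, minus strand, Cyp4v3 is chr8:45333164-45333413, minus strand, and Cyp2j9 is chr4:96591486-96591735, minus strand. Capitals mark matches, on either strand, to TATAAA and to CAAAGNNCA, a pattern chosen after the sequences were seen. The annotated gene span reaches 207 bases further upstream for Cyp2d26, 1038 for Cyp2j9 and 59 for Cyp2d10.
Cyp2d26: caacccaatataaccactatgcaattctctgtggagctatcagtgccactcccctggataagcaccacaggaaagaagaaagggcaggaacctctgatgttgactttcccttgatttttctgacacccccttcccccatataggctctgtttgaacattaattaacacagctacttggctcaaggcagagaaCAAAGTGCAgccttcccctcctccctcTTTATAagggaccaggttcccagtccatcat
Cyp2d9: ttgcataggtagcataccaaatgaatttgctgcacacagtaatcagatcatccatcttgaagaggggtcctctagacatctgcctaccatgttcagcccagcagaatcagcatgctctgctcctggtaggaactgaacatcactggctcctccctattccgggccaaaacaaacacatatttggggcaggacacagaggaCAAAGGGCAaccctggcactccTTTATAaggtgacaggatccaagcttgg
Cyp2d10: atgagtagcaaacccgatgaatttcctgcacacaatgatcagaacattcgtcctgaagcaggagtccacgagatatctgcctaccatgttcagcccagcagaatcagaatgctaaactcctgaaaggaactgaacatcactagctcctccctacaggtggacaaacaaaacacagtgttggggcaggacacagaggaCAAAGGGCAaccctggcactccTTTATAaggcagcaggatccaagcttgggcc
Cyp4v3: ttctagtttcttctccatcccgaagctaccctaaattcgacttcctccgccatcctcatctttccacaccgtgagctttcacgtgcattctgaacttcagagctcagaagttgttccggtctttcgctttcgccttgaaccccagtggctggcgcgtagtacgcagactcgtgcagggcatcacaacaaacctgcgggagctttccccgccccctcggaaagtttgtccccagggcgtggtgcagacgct
Cyp2j9: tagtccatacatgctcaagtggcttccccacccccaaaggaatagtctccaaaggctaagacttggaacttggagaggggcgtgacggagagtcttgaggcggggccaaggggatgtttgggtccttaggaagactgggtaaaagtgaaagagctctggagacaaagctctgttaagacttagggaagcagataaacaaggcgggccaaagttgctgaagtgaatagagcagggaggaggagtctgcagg

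The 3 Cyp2d regions share a TATAAA match, read on the minus strand as TTTATA, ending 26 bases before the start in Cyp2d26 and Cyp2d10 and 23 before it in Cyp2d9, and a CAAAGNNCA match just upstream of it. Neither pattern was found in these windows of Cyp4v3 and Cyp2j9. Of the 21 member windows, 6 held TATAAA (28.6%, against 12.4% of 32851 windows of all genes) and 5 held CAAAGNNCA (23.8%, against 5.5%). Since CAAAGNNCA was picked from sequences that supply 3 of those 5, its share is a description of that choice. The other 5 patterns searched on both strands were CCAAT (57.1%, against 33.8%), TTNNGNAA (19.0%, against 36.8%), TGTTTNC (9.5%, against 17.8%), AGGTCA (9.5%, against 14.0%) and GTTAAT (4.8%, against 6.4%). CAAAGNNCA and AGGTCA matches can overlap. Over aligned bases Cyp2d9 and Cyp2d10 were 85.0% identical, and Cyp2d26 was 64.8% identical to Cyp2d9 and 64.4% to Cyp2d10. Windows of unrelated members aligned at 58.8% to 64.8%, a range that includes the values of Cyp2d26 and its neighbours. These matches describe letters only and show nothing of binding.

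Cyp2d26 was the only Cyp2d gene called by its chosen probe set. Its log2 signal in wild type was 11.61, 11.47 and 11.56 on the control diet and 11.74, 11.66 and 11.81 on quercetin. In POR-null it was 11.05, 11.28 and 11.50 on the control diet and 11.07, 11.03 and 11.17 on quercetin. All 3 POR-null quercetin pools lay below all wild-type pools, while POR-null control pool 3 lay just above the lowest wild-type pool. It fell by 0.46 on the log2 scale averaged over diets (SE 0.07, adjusted p = 0.00173), a 1.38-fold drop. On quercetin the difference was -0.65 ± 0.10 (adjusted p = 0.00568) and on the control diet -0.27 ± 0.10 (adjusted p = 0.205). The averaged value was -0.45 without wild-type control pool 1 and -0.52 without POR-null control pool 3.

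The other Cyp2d members did not pass between genotypes. In the order along the chromosome the difference on the quercetin diet was 0.25 for Cyp2d22, -0.06 for Cyp2d10, -0.09 for Cyp2d9, 0.01 for Cyp2d12, -0.21 for Cyp2d34, -0.33 for Cyp2d13 and -0.65 for Cyp2d26. On the control diet it was 0.20, 0.24, 0.13, -0.07, 0.15, -0.12 and -0.27 in the same order. Cyp2d13 and Cyp2d26, at one end of the cluster, had the lowest values on both diets; differences between these genes were not tested. Cyp2d22, a proposed counterpart of CYP2D6, gave 9.97, 9.18 and 9.45 in wild type on the control diet, 9.74, 9.67 and 9.55 on quercetin, 9.70, 9.67 and 9.83 in POR-null on the control diet and 9.87, 9.96 and 9.89 on quercetin. Its averaged difference was 0.23 ± 0.10 (adjusted p = 0.204), and wild-type control pool 1 was the highest array of all. A second probe set of Cyp2d22 rose by 0.30 ± 0.06 (adjusted p = 0.0107). Without wild-type control pool 1 the first was the 1 member called on the control diet. Cyp2d9, a male-predominant testosterone hydroxylase, ranged over wild type from 11.48 to 11.87 and over POR-null from 11.56 to 11.95, with an averaged difference of 0.02 ± 0.08.

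**Figure D3:**
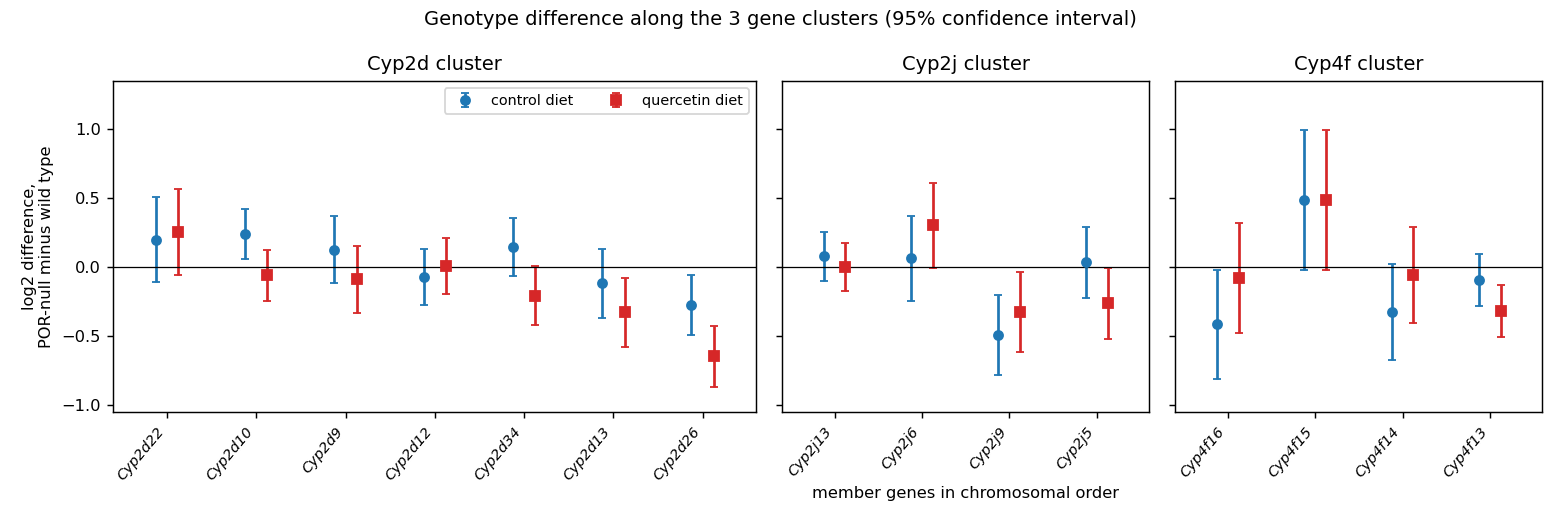
The log2 difference between POR-null and wild type is plotted on the control diet (circles) and quercetin diet (squares), with 95% confidence intervals, along the Cyp2d, Cyp2j and Cyp4f gene clusters in chromosomal order. Within Cyp2d the quercetin-diet value runs from 0.25 at Cyp2d22 to -0.65 at Cyp2d26; Cyp4f15 is at 0.49 on both diets.

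Cyp4v3, the counterpart of human CYP4V2, a fatty acid hydroxylase mutated in a crystalline retinal dystrophy, fell on the quercetin diet and in the average. Its log2 signal in wild type was 10.13, 9.87 and 9.85 on the control diet and 10.12, 10.08 and 10.21 on quercetin. In POR-null it was 9.72, 9.87 and 9.87 on the control diet and 9.36, 9.57 and 9.66 on quercetin. The quercetin-fed POR-null pools were the lowest 3 arrays. A second probe set of the gene fell likewise (-0.69 ± 0.12 on quercetin, adjusted p = 0.00902). The difference was -0.61 ± 0.10 on quercetin (adjusted p = 0.00785, 1.53-fold lower), -0.13 ± 0.10 on the control diet (adjusted p = 0.571) and -0.37 ± 0.07 averaged (adjusted p = 0.00627). The average was -0.33 without wild-type control pool 1 and -0.38 without POR-null control pool 3. The diet dependence itself, the interaction, was -0.48 ± 0.14 and did not pass (adjusted p = 0.798), so the genotype difference is not shown to depend on the diet.

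The Cyp2j genes encode epoxygenases of arachidonic acid and lie on chromosome 4 in the order Cyp2j13, Cyp2j6, Cyp2j9, Cyp2j5. Cyp2j9 fell averaged over diets by 0.41 on the log2 scale (SE 0.10, adjusted p = 0.0183, 1.33-fold). Its signal was 5.26, 4.83 and 4.75 in wild type on the control diet, 4.65, 4.78 and 4.84 on quercetin, 4.37, 4.28 and 4.71 in POR-null on the control diet and 4.45, 4.37 and 4.47 on quercetin. These values lie below the median of all probe sets, POR-null control pool 3 was the only POR-null pool above a wild-type one, and without POR-null control pool 1 the call was lost (adjusted p = 0.0510). The average was -0.33 without wild-type control pool 1 and -0.47 without POR-null control pool 3, and it passed in both fits. Cyp2j5, an epoxygenase of kidney and liver, did not pass: 10.35, 10.04 and 9.79 in wild type on the control diet, 10.13, 10.24 and 10.36 on quercetin, 10.10, 10.002 and 10.17 in POR-null on the control diet and 9.88, 10.07 and 9.98 on quercetin. Its difference was 0.03 ± 0.12 on the control diet and -0.26 ± 0.12 on quercetin (adjusted p = 0.286), where the genotypes did not overlap. A second probe set of Cyp2j5 gave -0.10 ± 0.15 and 0.02 ± 0.15 on these diets, and the genotypes overlapped on both. Cyp2j6 was at 0.06 and 0.30 and Cyp2j13 at 0.08 and 0.00 on the same diets, and neither passed.

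The Cyp4f genes hydroxylate the ends of leukotrienes and fatty acids; Cyp4f16, Cyp4f15, Cyp4f14 and Cyp4f13 lie in this order on chromosome 17. None of the 5 passed between genotypes in the fit of all arrays. Cyp4f15 gave 8.83, 8.02 and 8.26 in wild type on the control diet, 8.52, 8.81 and 9.12 on quercetin, 9.41, 8.83 and 8.34 in POR-null on the control diet and 9.17, 9.48 and 9.27 on quercetin. Its averaged difference was 0.49 ± 0.17 (adjusted p = 0.0945). It was called there once wild-type control pool 1 or POR-null control pool 3 was left out, and with array weights. Cyp4f13 was -0.32 ± 0.09 on quercetin without overlap of the arrays (adjusted p = 0.0727) and -0.09 ± 0.09 on the control diet. Averaged it was -0.21 ± 0.06 (adjusted p = 0.0578), and it was called there with array weights, quantile normalization, the filter on low signals or gene means. Cyp4f14 gave -0.33 ± 0.16 on the control diet, without overlap of the arrays, and -0.06 ± 0.16 on quercetin. Averaged it was -0.19 ± 0.12 (adjusted p = 0.341), and it was called there once wild-type quercetin pool 1 was left out. Cyp4f16 gave -0.42 ± 0.19 and -0.08 ± 0.19 on the control and quercetin diets, and Cyp4f18, on chromosome 8, -0.07 and 0.00. A second probe set of Cyp4f16 differed in pattern, with -0.02 ± 0.16 on the control diet and -0.24 ± 0.16 on quercetin.

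Among the members best known for handling foreign compounds, Cyp2e1, which oxidises ethanol and small solvents near the central vein, was steady. All 12 arrays lay between 13.18 and 13.42, with genotype differences of 0.00 ± 0.08 on the control diet and -0.08 ± 0.08 on quercetin. The averaged 95% interval was -0.16 to 0.08. Cyp2f2, which activates naphthalene, gave 12.30, 11.86 and 11.84 in wild type on the control diet, 12.14, 12.20 and 12.23 on quercetin, 11.84, 11.99 and 12.003 in POR-null on the control diet and 11.72, 11.98 and 11.89 on quercetin. On quercetin the genotypes did not overlap and the difference was -0.33 ± 0.11 (adjusted p = 0.155); on the control diet it was -0.06 ± 0.11. Cyp2a12, which hydroxylates bile acids and steroids, had 10.88, 10.77 and 10.50 in wild type on the control diet, 10.81, 10.53 and 10.65 on quercetin, 10.98, 10.78 and 10.75 in POR-null on the control diet and 10.73, 10.89 and 10.78 on quercetin, an averaged difference of 0.13 ± 0.08. Cyp4b1, Cyp2g1 and Cyp2s1, best known from lung, nose and other epithelia, had averaged differences of 0.04, 0.21 and -0.05.

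Of the steroid hormone genes, Cyp17a1 alone passed among the 4 measured. Cyp21a1, the adrenal steroid hydroxylase, was 0.12 ± 0.07 averaged, Cyp11a1, which starts steroid synthesis by cleaving cholesterol, was -0.06 ± 0.08, and Cyp11b2, aldosterone synthase, was 0.10 ± 0.07. For the 4 mitochondrial genes limma called 0 averaged over diets, with 0 also at an unadjusted p under 0.05. Cyp24a1, which inactivates vitamin D, was 0.05 ± 0.08, and Cyp27b1, which activates it, was 0.16 ± 0.09 (0.31 ± 0.13 on the control diet, adjusted p = 0.244). Mean signals of Cyp11a1, Cyp11b2, Cyp24a1 and Cyp27b1 lay between 4.34 and 5.90, below the median of all values. The steroidogenic marker Fdx1 is described with the electron donors below.

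Cyp39a1, an oxysterol hydroxylase on a route to bile acids that is female-predominant in mouse liver, varied widely between pools. It was 6.60, 7.43 and 6.81 in wild type on the control diet, 6.64, 6.98 and 6.34 on quercetin, 5.56, 6.67 and 5.83 in POR-null on the control diet and 7.01, 5.74 and 7.01 on quercetin. Of the POR-null pools 3 lay at 5.56 to 5.83 and 3 at 6.67 to 7.01, with both diets in each set, and the difference on the control diet was -0.93 ± 0.34 (adjusted p = 0.193). The brain cholesterol hydroxylase Cyp46a1 was -0.01 ± 0.08 averaged.

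**Figure D4:**
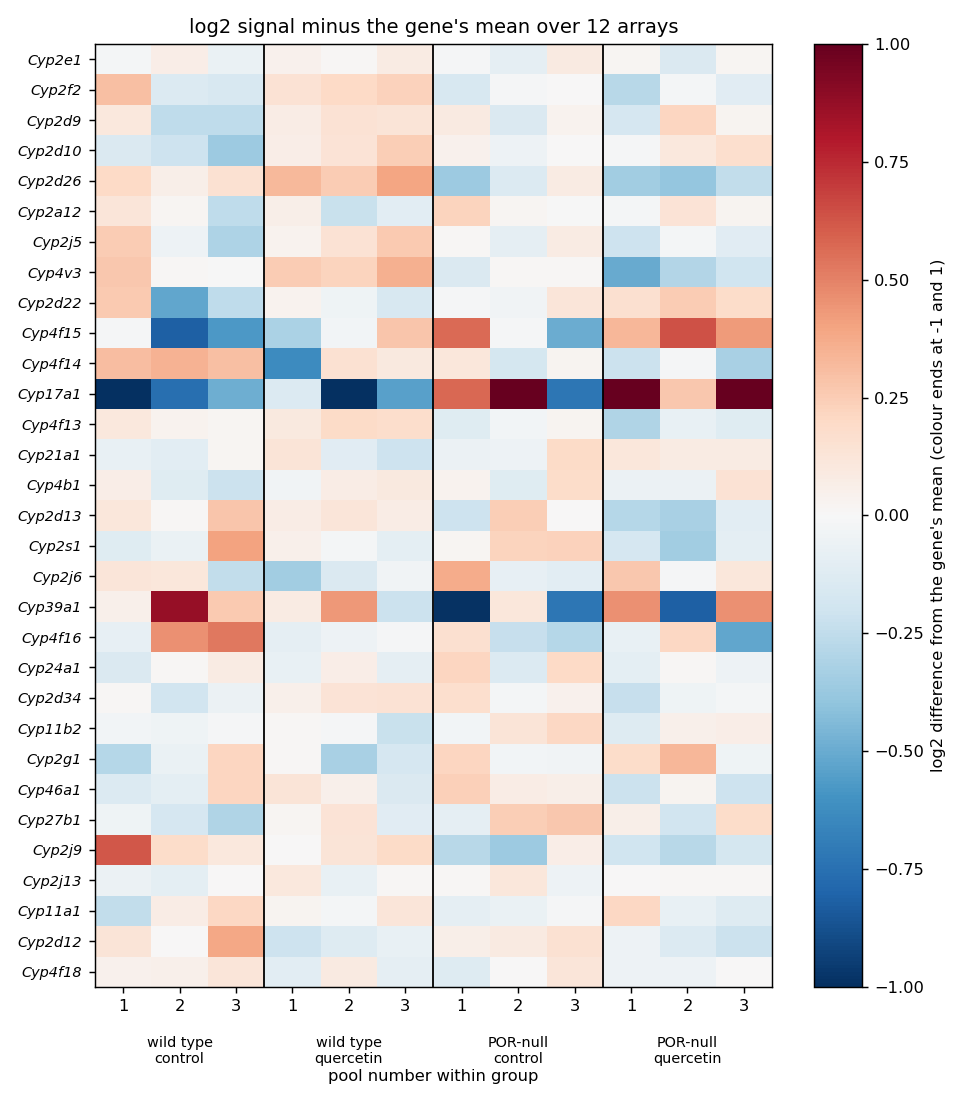
Log2 signal minus the gene's mean over the 12 arrays is shown for each of the 31 genes (rows) in each pool (columns, numbered within group); colours end at -1 and 1, and 5 values lie beyond. Cyp17a1 is high in POR-null pools except control pool 3, Cyp2d26 and Cyp2j9 are low in most of them, and Cyp39a1 differs between pools of the same group.

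Quercetin changed none of the 31 genes by limma in either genotype, and 0 of 22626 probe sets in all. The count over all probe sets turned on wild-type control pool 1: without it 151 probe sets passed in wild type, 1 of the members among them (Cyp2d10), and 24 averaged over genotypes, 0 of them members. At an unadjusted p under 0.05 it counted 4 members in wild type (12.9%, against 8.58% of all probe sets), 5 in POR-null, all lower (16.1%, against 6.99%, or 3.46% that were lower), and 5 averaged over genotypes (16.1%, against 9.19%). The lowest adjusted p of a member was 0.267 in wild type, 0.643 in POR-null and 0.292 averaged. These contrasts use the same arrays as the genotype contrasts and are not independent of them. The 95% interval lay within ±0.5 for 24 members in wild-type and 23 in POR-null mice.

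The members with the lowest p were Cyp2d10, Cyp2d12 and Cyp4f14 in wild type. Cyp2d10 read 11.35, 11.29 and 11.13 in wild type on the control diet and 11.57, 11.63 and 11.74 on quercetin, against 11.54, 11.45 and 11.50 and then 11.48, 11.60 and 11.67 in POR-null. Wild type did not overlap between diets, with a difference of 0.39 ± 0.09 (adjusted p = 0.267), which passed without wild-type control pool 1 (0.44, adjusted p = 0.0488). Cyp2d12 read 4.30, 4.18 and 4.56 in wild type on the control diet and 3.96, 4.05 and 4.10 on quercetin, against 4.23, 4.27 and 4.32 and then 4.12, 4.04 and 3.96 in POR-null. All 6 quercetin pools lay below all 6 control pools, and the averaged difference was -0.27 ± 0.07 (adjusted p = 0.292), at a signal below the median of all values. Across all probe sets 0.239% were separated in this way. Cyp4f14 read 9.13, 9.17 and 9.13 in wild type on the control diet and 8.20, 8.98 and 8.93 on quercetin, against 8.94, 8.65 and 8.86 and then 8.62, 8.81 and 8.502 in POR-null, with a wild-type difference of -0.44 ± 0.16 (adjusted p = 0.497). In POR-null the lowest p belonged to Cyp4v3 (-0.29 ± 0.10), Cyp2s1 and Cyp2d12. Cyp2s1 read 7.15, 7.35 and 7.35 on the control diet and 6.96, 6.78 and 7.02 on quercetin in POR-null, without overlap, a difference of -0.36 ± 0.13 (adjusted p = 0.649), and in wild type 7.01, 7.06 and 7.53 and then 7.17, 7.11 and 7.02.

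For the interaction of genotype and quercetin limma called 0 members, as for all probe sets, and 4 had an unadjusted p under 0.05 (Cyp4v3, Cyp2d26, Cyp2d34 and Cyp2d10), against 6.17% of all probe sets. All 4 lay below 0, against 3.07%. Cyp2d34 read 5.81, 5.61 and 5.74 in wild type on the control diet, 5.85, 5.94 and 5.95 on quercetin, 5.97, 5.78 and 5.84 in POR-null on the control diet and 5.57, 5.76 and 5.78 on quercetin, an interaction of -0.35 ± 0.14 (adjusted p = 0.803). That of Cyp2d26 was -0.38 ± 0.14 and that of Cyp2d10 -0.30 ± 0.12, both at an adjusted p of 0.803. The median 95% half-width for an interaction was 0.34 log2 units, without adjustment for the number of probe sets. Effects of that size and larger could be missed, as Cyp4v3 at -0.48 did not pass (limma adjusted p = 0.798).

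Genes that resemble these enzymes or work with them changed in part. Of the 32 P450 genes the rule leaves out, 13 rose and 0 fell averaged over diets (40.6%, against 4.88% of all probe sets that rose and 2.70% that fell), with a median difference of 0.24 against -0.03 for the 31 members; the difference between these groups was not tested. The same shares apply to the lists that follow, and with 9 to 19 genes a list 1 or 2 calls stand near them. Of 9 measured genes for electron transfer partners, 1 rose, Fdx1, the ferredoxin of mitochondrial P450s, by 0.53 ± 0.08 (adjusted p = 0.00144). Cyb5a, cytochrome b5, was 0.22 ± 0.07 (adjusted p = 0.0556). Of 12 genes of heme supply, Uros rose by 0.37 ± 0.10 and Fech, which inserts iron into heme, fell by 0.23 (SE 0.06). Of 14 female-biased liver genes, 6 rose (Cyp17a1, Sult1e1 by 2.68, Cd36 by 2.08, Cyp2b9, Abcd2 and Cyp3a44) and 1 fell (Prom1), while Cyp39a1, also on that list, did not pass. Of 17 male-biased genes, 0 rose and 5 fell (Slco1a1, Gstp1, Mup3, C9 and Susd4), and Cyp2d9, on that list, did not. Of 19 pericentral genes, 5 rose (Cyp7a1, Rhbg, Slc13a3, Oat and Aldh3a2) and Cyp2e1 did not pass. Of 16 periportal genes, 3 rose (Apoa4, G6pc and Aldh1b1) and 2 fell (Pck1 and Ftcd). The lists overlap with the other counts: Cyp2b9, Cyp3a44 and Cyp7a1 are also among the 32 P450 genes left out, and Cyp17a1 is a member. Rises of these genes are therefore counted more than once. These lists were written with earlier results of these data known, so their counts are not independent evidence of a direction.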

How the data were processed

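Total RNA of pooled mouse liver was measured on 12 arrays, and groups and pool numbers come from the sample titles. The authors deposited log2 values, as judged from their range. MAS5 and RMA are named in the submitters' processing notes with no role or version, and the authors' background correction is not given in the sources used here. No further normalization was applied. Of 22690 probe sets, 64 controls were left out and 22626 were tested. The platform annotation gave 20380 probe sets 1 symbol, 691 several and 1555 none, and 20351 matched the RefSeq table by gene identifier. Por itself was not analysed here.

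Tests were two-sided and used limma 3.58.1 (R 4.3.3). The fit held all 12 arrays in 4 groups, let the variance prior follow mean signal, and adjusted p by Benjamini-Hochberg over 22626 probe sets, with a threshold of 0.05. The 7 contrasts were genotype on each diet and averaged, quercetin in each genotype and averaged, and the interaction. The median 95% half-width of a member's difference on one diet was 0.24 on the log2 scale. Precision is limited by how few arrays there are. The procedure was tested on simulated data with independent, normally distributed values. These held no outlying pools, so that test says nothing of calls that turn on single pools. Pool numbers were not used to pair the arrays, since no label says that they mark a shared batch. Of 18 same-number pairs, 5 had deviations correlated above 0.1 (r = -0.184 to 0.235). Pairs with different numbers ran from r = -0.219 to 0.223, so whether pool numbers mark a pairing is not settled.

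Described in full were members past the threshold in any contrast, the 10 with the highest mean signal and the 3 with the lowest p in each contrast, 16 in all; others were named by role. Members and lists were chosen with earlier results of these data known. The counts of separated groups and of intervals within ±0.5 and the principal components were added after the data were seen. Signals of different probe sets are not comparable as levels.

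Alternatives were array weights, a robust variance prior or one without trend, quantile normalization, a filter on the lowest 40% of probe sets, a block for pool number, only the groups compared, the mean of a gene's probe sets, and leaving out each array.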

Additional observations from a re-analysis of the deposited data

Results flagged for a closer look

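The counts of members rest on 1 probe set per gene, and the second probe sets of Cyp4v3 and Cyp2d22, outside those counts, also passed. The second probe set of Cyp4v3 fell in POR-null by 0.69 on the quercetin diet (log2 difference -0.69 ± 0.12, adjusted p = 0.00902) and by 0.43 averaged over diets (-0.43 ± 0.08, adjusted p = 0.00739). It read 9.12, 8.90 and 8.73 in wild type on the control diet, 9.08, 9.12 and 9.32 on quercetin, 8.65, 8.68 and 8.94 in POR-null on the control diet and 8.31, 8.54 and 8.60 on quercetin.

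The second probe set of Cyp2d22 rose by 0.30 ± 0.06 averaged over diets (adjusted p = 0.0107), whereas the first was 0.23 ± 0.10 (adjusted p = 0.204). In the second, all 6 POR-null pools (9.06 to 9.25) lay above all 6 wild-type pools (8.76 to 9.02). The cause of the gap between the probe sets was not tested.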

How the results depend on the processing

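Cyp2d26 and Cyp4v3 kept their direction and call in all 20 alternatives on the quercetin diet (adjusted p = 0.00112 to 0.0327 and 0.00281 to 0.0483) and all 19 averaged over diets. Cyp17a1 averaged passed in 18 of 19 (adjusted p = 0.000868 to 0.0685) and Cyp2j9 in 17 of 18 (0.00527 to 0.051). The count of members called on the quercetin diet was 2, and 4 with array weights (adding Cyp17a1 and Cyp4f13) or with only the groups compared (adding Cyp2f2 and Cyp17a1). It was 3 with quantile normalization or the mean of a gene's probe sets, each adding Cyp4f13. The share of all features called on that diet was 2.33% in the main fit, 4.65% with array weights and 4.20% with only the groups compared. It was 2.13% with quantile normalization and 2.84% with gene means. Leaving out 1 array gave 0 to 3 members on the control diet, 2 to 3 on quercetin, 3 to 6 averaged and 0 to 1 for quercetin in wild type. The shares of all probe sets ran, in the same order, from 0.155% to 3.34%, 0.561% to 3.01%, 4.38% to 9.41% and 0% to 0.667%. Without wild-type control pool 1 the control-diet count was 1 (Cyp2d22) and the averaged count 6. The shares of all probe sets were then 3.34% (1.16% in the main fit) and 9.41% (7.58%). Without POR-null control pool 3 the control-diet count was 3 (Cyp2d26, Cyp17a1 and Cyp2j9), with 2.68% of all probe sets. With the replicate block, the pool number, the counts of members called were 0 on the control diet, 2 on quercetin and 4 averaged, and it changed no other call. The shares of all probe sets were then 1.07%, 2.16% and 7.28%. Over the 16 described genes in all 7 contrasts, values that were not called changed sign in 80 of 2063 alternatives. Of 115 alternatives to called values, 0 reversed and 2 lost the call. Causes were not tested. The filter left 22 of 31 members to test, so Cyp2j9 and Cyp2d12 have no value under it. A fit of only the groups compared was not run for averaged contrasts or the interaction. Weak signals and 3 pools per group limit what could be detected.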

Other observations

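Within the POR-null pools, Cyp17a1 and Cyp39a1 shared a pattern that was noticed in the data and not tested. Cyp39a1 was high in control pool 2 (6.67) and quercetin pools 1 and 3 (7.01 in both), and these were also the pools with the highest Cyp17a1 (9.64, 10.04 and 9.58). In the other POR-null pools Cyp39a1 was 5.56, 5.83 and 5.74 and Cyp17a1 was 8.90, 7.61 and 8.60. Across wild type the highest Cyp39a1 (7.43) was in control pool 2 and the highest Cyp17a1 (8.19) in quercetin pool 1.

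The 2 probe sets of Cyp21a1 had averaged genotype differences of opposite sign, 0.12 and -0.12, and neither passed.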
